A study of Homo sapiens with 12 samples.

Results

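The HOX genes are the homeobox transcription factor genes of the HOXA, HOXB, HOXC and HOXD clusters, and 38 of them were chosen by symbol, by a rule that uses no measured value, from the 58347 genes in the count tables. All 38 were found. The members were chosen with earlier results of these data known, although the rule itself uses no value. Transcript levels were measured by poly(A) RNA-seq in A375, an established melanoma cell line with mutant BRAF, so that a single line stands for the genotype in every group. The 12 libraries fall into 4 groups of 3, each labelled with an 8 h exposure at 5 µM. The groups are DMSO, the vehicle control; Tretinoin, the all-trans retinoic acid that activates nuclear retinoic acid receptors; Vemurafenib, an inhibitor of mutant BRAF kinase; and Combination, in which vemurafenib and tretinoin were given together. The labels do not say whether the combination held 5 µM of each drug, so that its comparisons with a single drug and the interaction may also hold a difference in dose. The study compared the pair of drugs with each drug alone, since the pair came from its network-based prediction of drug combinations for BRAF-mutant melanoma. Treatments were applied in triplicate, and nothing in the labels says that the replicates came from separate cultures, so that p-values measure the spread between these samples only.

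HOX proteins bind DNA through the homeodomain and set positional identity along the head-to-tail axis and the limbs. The genes of a cluster lie side by side, transcribed in the same direction, and low-numbered (3′, anterior) genes are expressed earlier and farther forward in the embryo than high-numbered (5′, posterior) genes. Genes with the same number in different clusters are paralogs. Retinoic acid acts on the 3′ genes through receptor binding sites within and near the clusters, and Polycomb and Trithorax chromatin complexes hold the silent and active states. Adult cells, melanocytes included, keep a HOX code that reflects where in the body they came from.

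Total counts ran from 13510235 to 21534377 per library. Tretinoin replicate 1 stood apart from its group, with a chi-square per degree of freedom of 19.1 and 21.8 against the other two, which differed from each other by 2.56. The other groups ranged from 2.63 to 8.38. The calls of HOX genes with tretinoin against DMSO, and their count, are given with and without it. Sums, medians and marker levels are given with it only. The drugs were visible in their usual targets. DUSP6, SPRY2, SPRY4, ETV4 and ETV5, feedback genes of the MAPK pathway, all fell with vemurafenib, by 2.76 to 6.55 on the log2 scale. DHRS3, a retinaldehyde reductase induced by retinoids, rose with tretinoin by 2.91 (SE 0.09), and 3 of 5 retinoid-response genes rose in all. Of 12 melanocytic markers, 8 passed the count filter and SOX10, a defining one, had 0 counts in every library. The summed level of these markers was 645.0 to 714 CPM (counts scaled to the size of the library) with DMSO, 662 to 704 with tretinoin, 430 to 453 with vemurafenib and 354 to 375 with the combination. With vemurafenib 2 of them fell, MCAM and CSPG4, which make up most of the sum, and 2 rose, MITF (log2 0.88) and TYRP1 (2.32). The 5 fibroblast markers summed to 5.54 to 7.76 CPM with DMSO, 5.70 to 6.67 with tretinoin, 14.2 to 15.8 with vemurafenib and 10.9 to 11.1 with the combination. The 3 endothelial markers summed to 5.28 to 6.55, 12.7 to 17.2, 2.403 to 3.17 and 5.34 to 6.202 CPM in the same order, the 4 leukocyte markers to 1.03 to 2.90, 2.52 to 4.76, 3.17 to 3.91 and 3.72 to 5.28, and the 5 keratinocyte markers to 76.8 to 94.4, 50.3 to 83.4, 90.0 to 94.3 and 91.9 to 107.7. All 12 libraries came from A375 cells, so these sums are levels of marker transcripts in that line, not amounts of other cell types. The part of these transcripts in the results was not tested. In bulk RNA, fewer cells with a transcript and less of it per cell cannot be told apart.

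On GRCh38 the HOXA genes lie at chr7:27100354-27200106 on the minus strand, the HOXB genes at chr17:48528526-48729178 on the minus strand, the HOXC genes at chr12:53938765-54056030 on the plus strand and the HOXD genes at chr2:176092891-176190907 on the plus strand. RefSeq promoter windows (GRCh38.p14) matched 20 of the 38 genes, in 27 windows because some genes have several starts. There was no entry for HOXA5, HOXC13 or HOXB2. The sequences upstream of the start are shown for HOXA4 and HOXA6, which rose with the combination and flank HOXA5, and for HOXD13, which fell with vemurafenib. HOXA4 is at chr7:27130800-27131007 (minus strand), HOXA6 at chr7:27147775-27148024 (minus strand) and HOXD13 at chr2:176092471-176092720 (plus strand). Capitals mark matches on either strand to the letters searched, which are named after the sequences.
HOXA4: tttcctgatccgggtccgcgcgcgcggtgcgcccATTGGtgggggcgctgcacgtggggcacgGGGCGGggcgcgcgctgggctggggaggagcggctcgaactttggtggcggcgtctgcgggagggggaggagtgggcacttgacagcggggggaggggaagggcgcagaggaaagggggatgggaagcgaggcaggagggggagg
HOXA6: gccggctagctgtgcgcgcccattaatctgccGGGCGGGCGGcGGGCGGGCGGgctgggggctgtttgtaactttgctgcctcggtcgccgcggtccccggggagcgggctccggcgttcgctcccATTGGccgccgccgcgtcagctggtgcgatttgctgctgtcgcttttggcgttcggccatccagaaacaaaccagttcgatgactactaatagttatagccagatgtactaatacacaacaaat
HOXD13: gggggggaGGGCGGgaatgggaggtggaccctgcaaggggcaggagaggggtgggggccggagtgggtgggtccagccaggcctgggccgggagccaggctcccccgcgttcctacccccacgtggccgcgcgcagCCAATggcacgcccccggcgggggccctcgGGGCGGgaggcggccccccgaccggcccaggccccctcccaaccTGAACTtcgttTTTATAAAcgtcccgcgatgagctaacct

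The stretches were 74.0%, 62.0% and 74.0% G and C. The retinoid receptor half-site AGGTCA was in 13.8% of all 35116 windows and in 0 of the 27 HOX windows, and AGTTCA was in 10.4% of all windows and in 6 HOX windows, those of HOXA3, HOXC4, HOXC5, HOXD8 and HOXD13. HOXC4 and HOXC5 have the same window. Direct repeats of these half-sites with 1, 2 or 5 bases between them were in 0 of the 27 HOX windows and in 0.048%, 0.006% and 0.02% of all windows. The CCAAT box was in 34.6% of all windows and in 18 HOX windows, the GC box (GGGCGG, whose copies share letters upstream of HOXA6) in 44.95% and 13, and TATAAA in 11.5% and 5. The AP-1 site (TGAGTCA or TGACTCA) was in 4.95% of windows and 0 of the HOX windows, and TGATNNAT, the letters of joint PBX and HOX binding, in 7.40% and 3. A match is a description of letters and not of binding.

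In A375 cells given vehicle the HOX code was broad, with members of all 4 clusters well above the lowest levels. Per kilobase of exon, HOXB2, which patterns the hindbrain, was the highest with DMSO at 32.3 ± 2.4 CPM per kb (SD, n = 3). HOXB7 followed at 24.7 ± 2.9 and HOXC10, a posterior gene of limb-level motor neurons, at 16.3 ± 1.1, and none of these 3 overlapped with its neighbour in the order. From HOXC8 (9.56 ± 0.57) down to HOXA5 (6.11 ± 0.63), 10 genes formed a run in which each overlapped the next, and HOXC13, HOXD9 and HOXD13 all averaged between 8.06 and 8.12. At the bottom, HOXA9 averaged 0.105 ± 0.045 and HOXD3 0.030 ± 0.024. The order changed with treatment. With vemurafenib HOXB7 was first (24.4 ± 0.8) and with the combination HOXA5 was (27.4 ± 1.5), overlapping HOXB7 (26.1 ± 3.0), which overlapped HOXC13 (23.8 ± 1.0), while HOXB2 was eighth at 8.61 ± 0.62.

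**Figure D1:**
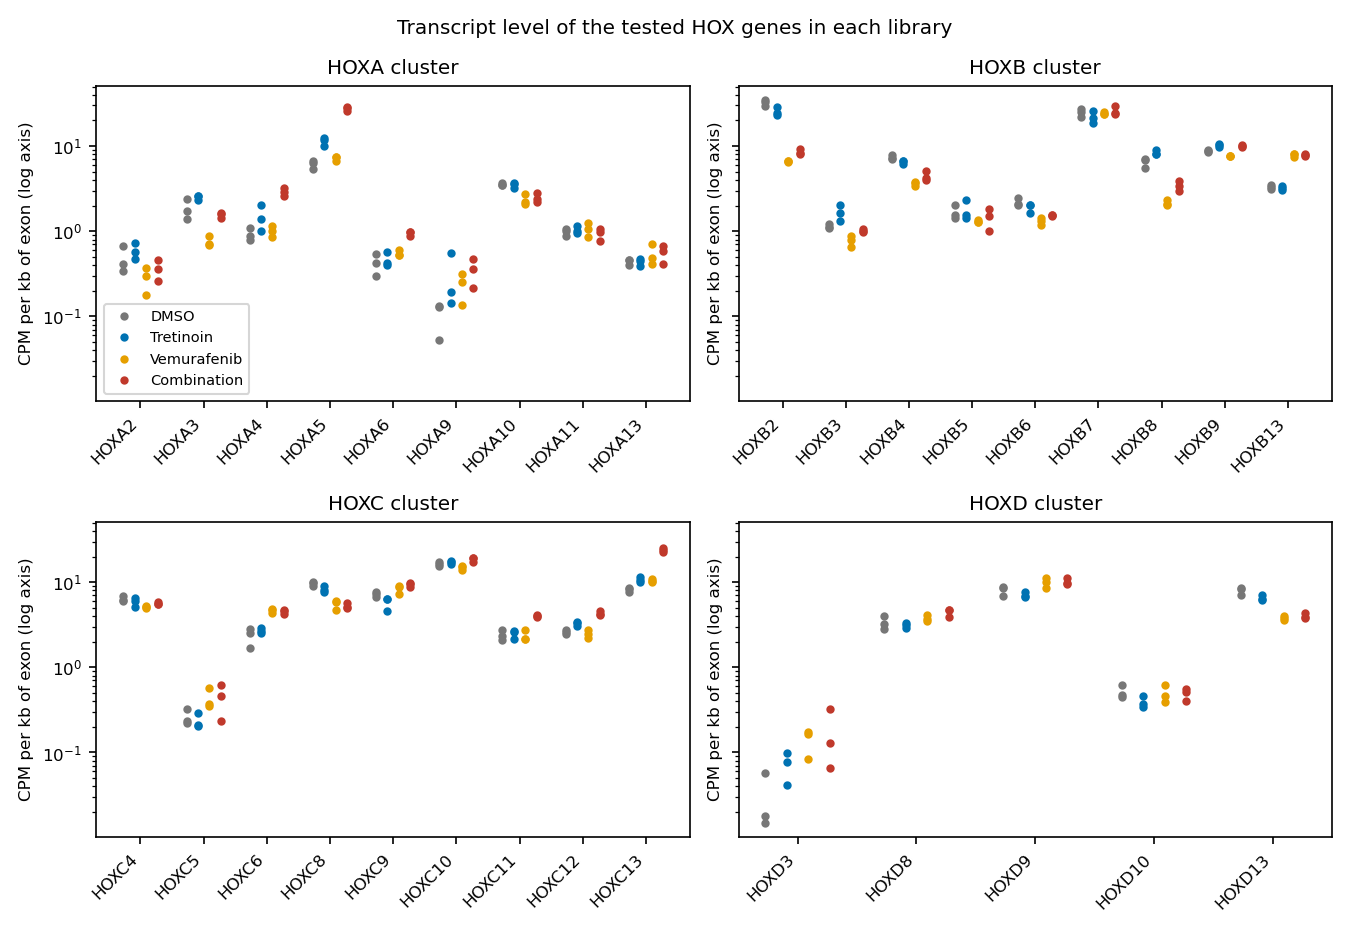
Level of the 32 tested HOX genes in CPM per kilobase of exon (log axis) in each of the 12 libraries, by cluster and in order of gene number, with a point per library and a colour per treatment. HOXB2 sits above 29 CPM per kb in the DMSO libraries and below 10 in every vemurafenib and combination library, and HOXA5 and HOXC13 rise above 20 in the combination libraries.

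The count filter was passed by 32 of the 38 genes, 9 of 10 in HOXA, 9 of 10 in HOXB, 9 of 9 in HOXC and 5 of 9 in HOXD. HOXB1, the most anterior HOXB gene and a classical retinoid target in the embryonic hindbrain, had 0 counts in all 12 libraries, tretinoin included. HOXD1 and HOXD4 reached at most 4 counts, HOXD12 7, HOXD11 10 and HOXA7 15. HOXA7 had 1 to 3 counts with DMSO and 7 to 15 with the combination. No test is read from it, since only 2 libraries, both of the combination, reached the filter level. HOXA9 and HOXD3 passed the filter only through treated libraries, as no DMSO library reached its level of 0.553 CPM, so that these 2 had to be higher with treatment. Of HOXC5 and HOXA6, 1 DMSO library each reached it, so that a fall of either could scarcely be called. The counting took reads without regard to strand and left out fragments that touched more than 1 gene. Genes whose exons overlap those of neighbours were therefore counted over part of their length only. The overlap was 74.1% of exon bases for HOXD3 and 0% for HOXA5.

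The fit across 16740 genes called 4 of the 32 tested HOX genes with tretinoin against DMSO, 3 higher and 1 lower, where 3.48% of all tested genes rose and 2.2% fell; the count was 1 without DMSO replicate 2 and 3 without tretinoin replicate 1. Vemurafenib changed 16, 5 higher and 11 lower, against a background of 26.4% higher and 26.3% lower, and the split was 8 and 8 with scaling by library size only. The combination changed 21 against DMSO, with 14 higher (background 27.1%) and 7 lower (26.5%). Without HOXA9 and HOXD3, whose rise the filter fixed, 4 of 30 genes were higher with vemurafenib and 12 of 30 with the combination. The 12 include HOXA6, which reached the filter level in 1 DMSO library only. Combination against vemurafenib, the tretinoin effect in cells that also received vemurafenib, gave 10 higher (background 2.27%) and 0 lower (2.2%) in edgeR; 13 were higher and 0 lower at an unadjusted p under 0.05, and DESeq2 also gave 10 and 0. Combination against tretinoin gave 11 higher (background 24.1%) and 8 lower (25%). The difference between the tretinoin effects with and without vemurafenib, the drug interaction, was above 0 for 3 genes (background 0.382%) and below 0 for 0 (0.424%). At an unadjusted p under 0.05 these were 12 and 0, and DESeq2 gave 3 and 0. The median log2 fold change over the 30 genes without HOXA9 and HOXD3 was 0.01 with tretinoin, -0.08 with vemurafenib and 0.13 with the combination against DMSO, 0.23 for combination against vemurafenib, 0.18 for combination against tretinoin and 0.28 for the interaction. Over all tested genes these medians lay between -0.01 and 0.03. The 3 contrasts with DMSO share its libraries, and the interaction uses all 12.

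**Figure D2:**
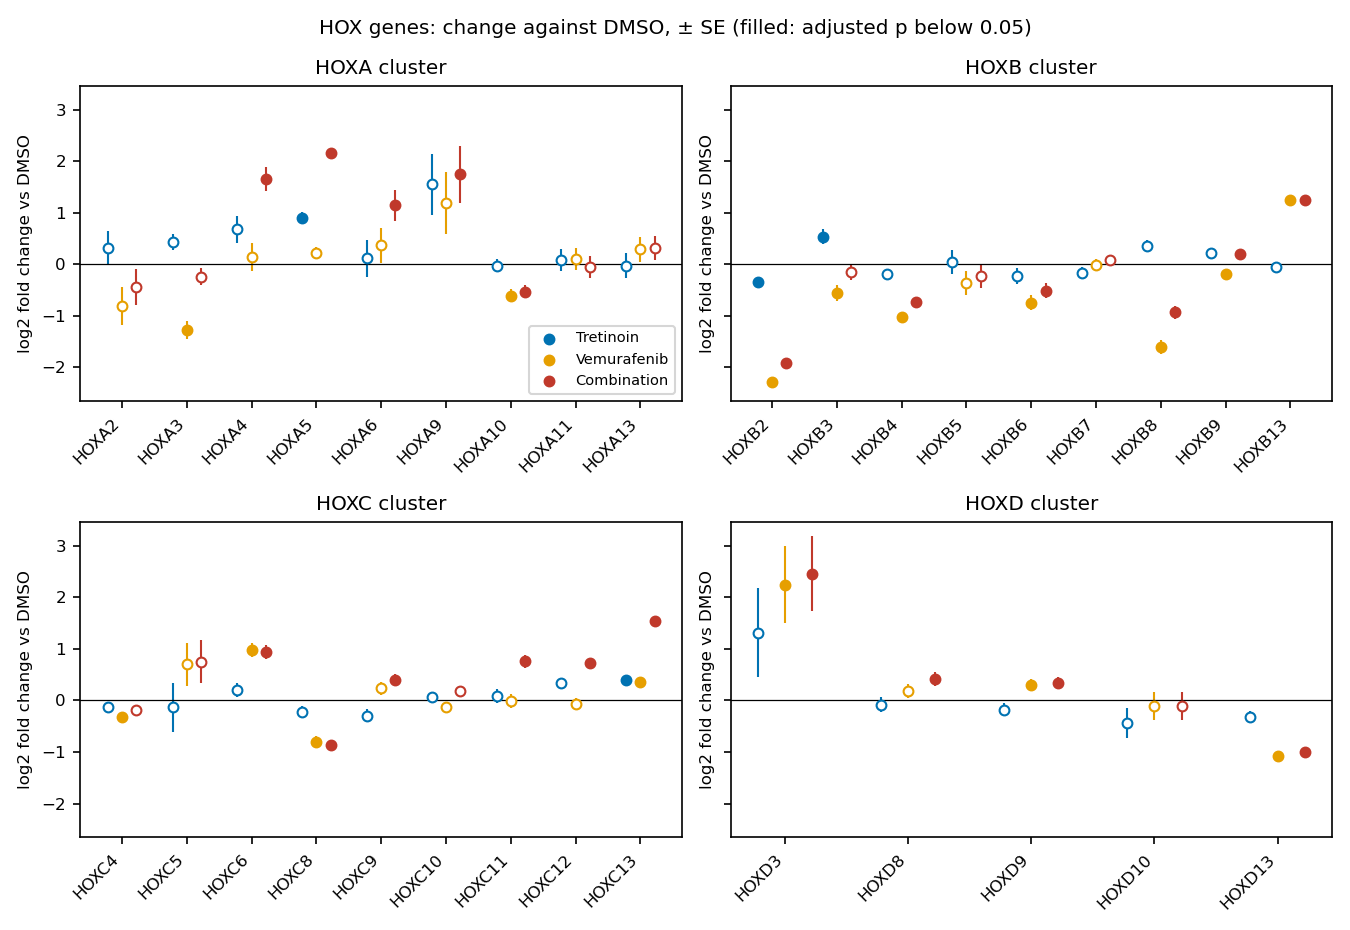
Log2 fold change against DMSO (± SE) of the 32 tested HOX genes for tretinoin, vemurafenib and their combination, by cluster and in order of gene number; filled points have an adjusted p below 0.05. In HOXA the combination points of HOXA4, HOXA5 and HOXA6 lie above 1, in HOXB the vemurafenib points of HOXB2, HOXB4 and HOXB8 lie below -1 and HOXB13 stands at 1.24, and in HOXC the combination points of HOXC11, HOXC12 and HOXC13 lie above 0.7. HOXA9 and HOXD3 also have filled combination points above 1, but the count filter fixed their rise.

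The largest rise in the HOXA cluster was that of HOXA5, which patterns the neck and upper chest and the lung. Its DMSO libraries held 11.3, 9.25 and 10.7 CPM. With tretinoin these were 17.3, 20.3 and 21.1, and with vemurafenib 12.8, 11.4 and 12.6. The combination libraries held 49.2, 44.1 and 47.2, more than double any other library. HOXA5 rose with tretinoin by 0.91 on the log2 scale (SE 0.10, adjusted p = 3.42e-05), which is 1.88-fold. Vemurafenib alone gave 0.22 (SE 0.11, adjusted p = 0.0906), although the groups did not overlap. The combination raised HOXA5 4.48-fold over DMSO (log2 2.16, SE 0.10, adjusted p = 9.11e-12), 3.83-fold over vemurafenib and 2.39-fold over tretinoin. The tretinoin effect was larger with vemurafenib present by 1.03 on the log2 scale (SE 0.14, adjusted p = 0.00238). Leaving out tretinoin replicate 1, or any other single library, did not end a call of HOXA5.

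HOXA4 and HOXA6, on either side of HOXA5, were also highest with the combination. HOXA4, whose start site is 12.9 kb from that of HOXA5, was at 1.55, 1.89 and 1.37 CPM with DMSO and 3.59, 1.74 and 2.46 with tretinoin. With vemurafenib it was at 2.03, 1.49 and 1.74, and with the combination at 5.56, 5.11 and 4.53. The tretinoin and vemurafenib libraries overlapped DMSO and the combination libraries did not. HOXA4 rose 3.17-fold with the combination over DMSO (log2 1.66, SE 0.23, adjusted p = 1.08e-05) and 2.88-fold over vemurafenib (log2 1.53, SE 0.22, adjusted p = 0.000263), and its interaction of 0.85 (SE 0.35, adjusted p = 0.267) did not pass the test. HOXA6, 6.9 kb on the other side, was at 0.387 to 0.686 CPM with DMSO, 0.523 to 0.733 with tretinoin, 0.674 to 0.781 with vemurafenib and 1.13 to 1.27 with the combination. It was 2.21-fold higher with the combination than with DMSO (log2 1.15, SE 0.31, adjusted p = 0.00452). Only 1 DMSO and 1 tretinoin library reached the filter level, so that a fall of HOXA6 could scarcely be called. Distances are between outermost GENCODE starts, and the RefSeq window shown for HOXA6 lies at a start nearer to HOXA5. Exon sharing reached 47.3% of HOXA4 and 40.1% of HOXA6.

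HOXA3, which is needed for the thymus and the pharyngeal arches, moved differently. It was at 10.2, 6.01 and 7.49 CPM with DMSO and at 11.1, 11.3 and 9.97 with tretinoin. Vemurafenib took it to 3.74, 2.98 and 3.06, below every other library. The combination libraries, at 7.04, 6.23 and 6.93, lay within the DMSO range. HOXA3 fell with vemurafenib by 1.28 on the log2 scale (SE 0.18, adjusted p = 1.01e-05) and was 2.06-fold higher with the combination than with vemurafenib (log2 1.04, SE 0.18, adjusted p = 0.00114), so that combination against DMSO was -0.24 (SE 0.16, adjusted p = 0.223).

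Toward the 5′ end, HOXA10, a gene of uterine and limb patterning, was lower with vemurafenib whether or not tretinoin was added. It was at 13.1, 13.5 and 13.0 CPM with DMSO, 11.8 to 13.8 with tretinoin, 7.70 to 10.2 with vemurafenib and 8.24 to 10.6 with the combination. HOXA10 fell by 0.60 with vemurafenib (SE 0.12, adjusted p = 0.000533) and by 0.53 with the combination (SE 0.12, adjusted p = 0.00146). HOXA9, a gene of blood progenitors and leukaemia, was at 0.158 to 0.405 CPM with DMSO and 0.650 to 1.43 with the combination, and its highest library was tretinoin replicate 2 at 1.69. No test is read from it, since it passed the filter through treated libraries only. HOXA2, HOXA11 and HOXA13 were called in no comparison, and their levels over the 12 libraries ran from 0.433 to 1.81, from 1.76 to 2.88 and from 1.98 to 3.58 CPM. Summed over the 10 genes, the HOXA cluster held 39.8 ± 2.5 CPM with DMSO, 53.7 ± 1.9 with tretinoin, 33.6 ± 3.1 with vemurafenib and 76.5 ± 4.9 with the combination (SD, n = 3).

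**Figure D3:**
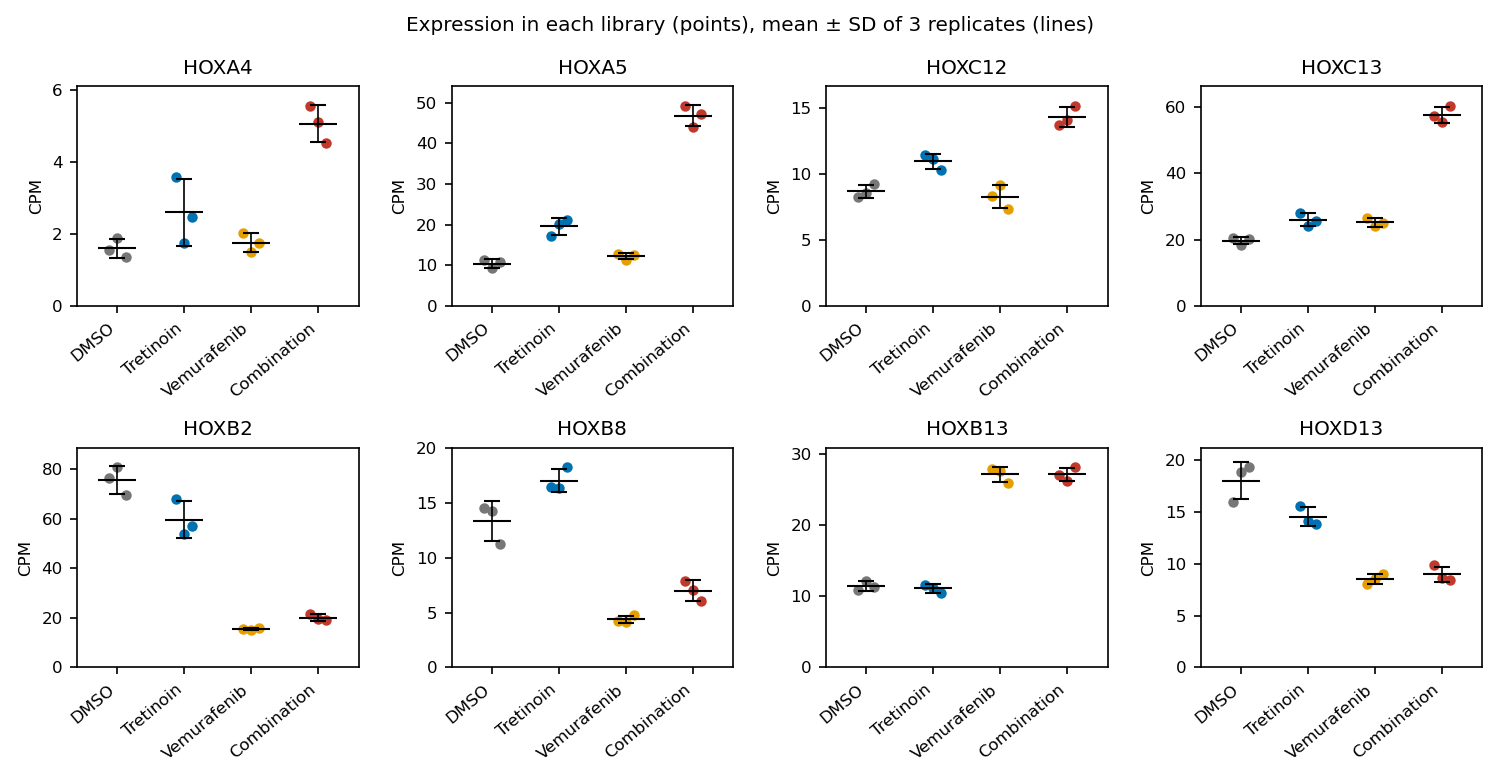
CPM of 8 HOX genes in each library (points), with the mean ± SD of 3 replicates (lines), on axes that start at 0. HOXA4, HOXA5, HOXC12 and HOXC13 are highest in the combination libraries, HOXB2, HOXB8 and HOXD13 are low in the vemurafenib and combination libraries, and HOXB13 lies between 25.9 and 28.1 in both.

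In the HOXC cluster HOXC13 at the 5′ end had the largest change with the combination. HOXC13, which drives hair and nail keratin genes, was at 20.5, 18.4 and 20.1 CPM with DMSO and at 28.2, 24.2 and 25.6 with tretinoin. Vemurafenib libraries held 26.6, 24.1 and 24.9, and combination libraries 57.2, 55.4 and 60.3. Each drug alone placed HOXC13 above all DMSO libraries, and the combination more than 2-fold above each drug. HOXC13 rose with tretinoin by 0.40 (SE 0.08, adjusted p = 0.0101), with vemurafenib by 0.35 (SE 0.08, adjusted p = 0.00178) and with the combination by 1.55 (SE 0.08, adjusted p = 4.91e-11), which is 2.93-fold over DMSO. The interaction was 0.80 (SE 0.12, adjusted p = 0.00333). The tretinoin call was lost without DMSO replicate 2 and was kept without tretinoin replicate 1.

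HOXC12 and HOXC11, whose start sites lie 16.1 kb and a further 18.3 kb from that of HOXC13, were called higher than DMSO with the combination and with neither drug alone. HOXC12 was at 8.25, 8.58 and 9.23 CPM with DMSO, 11.4, 11.2 and 10.3 with tretinoin, 8.31, 9.19 and 7.39 with vemurafenib and 13.8, 14.1 and 15.2 with the combination. It rose 1.65-fold over DMSO (log2 0.72, SE 0.11, adjusted p = 1.94e-05) and 1.72-fold over vemurafenib (log2 0.78, SE 0.10, adjusted p = 0.000108), while tretinoin alone gave 0.33 (SE 0.11, adjusted p = 0.0897). HOXC11 was at 6.81 to 8.85 CPM with DMSO, 6.97 to 8.71 with tretinoin, 7.03 to 8.93 with vemurafenib and 12.7 to 13.4 with the combination, 1.69-fold over DMSO (log2 0.76, SE 0.13, adjusted p = 7.68e-05). The 3 single-treatment ranges of HOXC11 overlapped, and its interaction was 0.68 (SE 0.19, adjusted p = 0.105).

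HOXC8, HOXC6 and HOXC4 changed with vemurafenib. HOXC8, a thoracic patterning gene, was at 16.9, 19.0 and 18.3 CPM with DMSO, 14.3 to 17.1 with tretinoin, 8.78 to 11.2 with vemurafenib and 9.48 to 10.6 with the combination, and fell by 0.81 with vemurafenib (SE 0.11, adjusted p = 8.68e-06) and by 0.87 with the combination. HOXC6 moved the other way, from 6.01 to 9.86 CPM with DMSO to 15.4 to 17.3 with vemurafenib (log2 0.98, SE 0.13, adjusted p = 9e-06) and 15.0 to 16.6 with the combination (log2 0.94), and tretinoin left it at 8.98 to 10.3. HOXC4 fell by 0.32 with vemurafenib (SE 0.10, adjusted p = 0.0122), from 16.5 to 18.7 CPM to 13.7 to 14.4, and was at 14.0 to 17.96 with tretinoin and 15.0 to 15.7 with the combination; that call was lost without DMSO replicate 3.

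HOXC9 was at 11.2 to 12.8 CPM with DMSO, 7.70 to 10.7 with tretinoin, 12.3 to 15.3 with vemurafenib and 14.7 to 16.4 with the combination, and rose with the combination by 0.39 over DMSO (SE 0.12, adjusted p = 0.0113) and by 0.69 over tretinoin; the first of these calls was lost without DMSO replicate 3. HOXC10 was at 35.7 to 40.6 CPM with DMSO, 38.05 to 41.1 with tretinoin, 32.5 to 36.5 with vemurafenib and 40.7 to 44.6 with the combination. It was called for combination against vemurafenib only (log2 0.32, SE 0.08, adjusted p = 0.018), and no longer without vemurafenib replicate 2 or 3 or combination replicate 2 or 3. HOXC5 ranged from 0.367 to 1.13 CPM and was called in no comparison. The HOXC cluster summed to 130.4 ± 4.4 CPM with DMSO, 136.2 ± 2.8 with tretinoin, 131.4 ± 1.6 with vemurafenib and 186.0 ± 3.5 with the combination.

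In the HOXB cluster vemurafenib lowered 6 of the 9 tested genes, where 26.3% of all tested genes fell, and HOXB2 most. With scaling by library size only, HOXB3 and HOXB9 were no longer among them. HOXB2 was at 76.4, 80.6 and 69.5 CPM with DMSO, and at 68.0, 53.8 and 56.9 with tretinoin. Vemurafenib left 15.5, 15.3 and 15.8, and the combination 21.7, 19.7 and 19.0. No 2 of these 4 groups overlapped. HOXB2 fell 4.86-fold with vemurafenib (log2 -2.28, SE 0.10, adjusted p = 2.46e-12) and 3.75-fold with the combination (log2 -1.91, SE 0.09, adjusted p = 1.69e-11). With tretinoin alone it fell by 0.34 (SE 0.09, adjusted p = 0.0268), and against vemurafenib the combination was higher by 0.37 (SE 0.10, adjusted p = 0.0379). The interaction of 0.72 (SE 0.13, adjusted p = 0.0122) thus joins a fall and a rise. The tretinoin call was kept without tretinoin replicate 1 and lost without either of the other tretinoin replicates or without DMSO replicate 1 or 2. The call against vemurafenib was lost in each of the 6 fits that left out a library of either group, and the interaction call without vemurafenib replicate 2.

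HOXB8, studied in spinal cord and blood progenitor cells, also fell with vemurafenib. It was at 14.5, 14.3 and 11.2 CPM with DMSO and 16.5, 16.4 and 18.2 with tretinoin. Vemurafenib took it to 4.26, 4.19 and 4.75, and the combination to 7.92, 7.06 and 6.02. HOXB8 fell by 1.60 with vemurafenib (SE 0.14, adjusted p = 3.12e-08) and by 0.93 with the combination, and was 1.59-fold higher with the combination than with vemurafenib (log2 0.67, SE 0.14, adjusted p = 0.00835; adjusted p = 0.0548 without vemurafenib replicate 2). Tretinoin alone gave 0.36 (SE 0.12, adjusted p = 0.0834).

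HOXB4, which supports blood stem cell renewal, was at 26.7 to 29.5 CPM with DMSO, 23.1 to 25.4 with tretinoin, 12.8 to 14.3 with vemurafenib and 15.1 to 19.1 with the combination; it fell by 1.02 with vemurafenib (SE 0.10, adjusted p = 1.41e-07) and by 0.73 with the combination. HOXB6 fell by 0.74 with vemurafenib (SE 0.15, adjusted p = 0.000524), from 5.33 to 6.44 CPM to 3.13 to 3.71, and by 0.51 with the combination, at 3.95 to 4.07; with tretinoin it was at 4.22 to 5.35. HOXB3 was at 8.04 to 9.09 CPM with DMSO and 15.2, 9.82 and 12.1 with tretinoin, a rise of 0.54 (SE 0.14, adjusted p = 0.0374). Its highest value was in tretinoin replicate 1, and without that library, or without any single DMSO library, the call was lost. HOXB3 fell by 0.56 with vemurafenib (SE 0.15, adjusted p = 0.0058), to 4.93 to 6.49 CPM, and the combination libraries held 7.37 to 8.01.

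HOXB13, the posterior end of the cluster and a gene of prostate and tail development, was the HOXB gene that rose with vemurafenib. It was at 10.9, 12.2 and 11.3 CPM with DMSO and 11.7, 11.2 and 10.5 with tretinoin. Vemurafenib libraries held 27.8, 27.7 and 25.9, and combination libraries 27.1, 26.2 and 28.1. Vemurafenib raised HOXB13 2.37-fold (log2 1.24, SE 0.09, adjusted p = 2.29e-09) and the combination by the same 1.24 (SE 0.09, adjusted p = 1.94e-09). The tretinoin effect was -0.05 (SE 0.09) without and 0.00 (SE 0.08) with vemurafenib. Its start site is 102.8 kb from that of HOXB9.

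HOXB9 was at 21.8 to 23.4 CPM with DMSO, 25.5 to 27.4 with tretinoin, 19.7 to 19.9 with vemurafenib and 25.4 to 26.3 with the combination, and rose by 0.38 with the combination over vemurafenib (SE 0.07, adjusted p = 0.00396). Its changes against DMSO, -0.19 with vemurafenib (adjusted p = 0.0486) and 0.20 with the combination (adjusted p = 0.0343), were lost in 10 and 8 of 13 alternative fits, and with scaling by library size only the first turned to 0.009. HOXB7, at 28.7 to 45.1 CPM, and HOXB5, at 2.04 to 4.69, were called in no comparison. The HOXB sum fell from 205.9 ± 10.9 CPM with DMSO to 129.8 ± 1.6 with vemurafenib and 151.2 ± 9.1 with the combination, with 193.0 ± 8.9 for tretinoin.

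In the HOXD cluster 5 genes were tested, and the calls lay in the comparisons with DMSO of vemurafenib and the combination and in combination against tretinoin. HOXD13, which shapes the digits, was at 16.0, 18.8 and 19.3 CPM with DMSO and 15.6, 14.2 and 13.9 with tretinoin. Vemurafenib libraries held 8.05, 8.56 and 9.07, and combination libraries 9.85, 8.69 and 8.47. HOXD13 fell by 1.08 with vemurafenib (SE 0.11, adjusted p = 2.04e-07) and by 1.01 with the combination (SE 0.11, adjusted p = 3.81e-07), and tretinoin alone gave -0.32 (SE 0.10, adjusted p = 0.0821).

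HOXD9 was at 12.8 to 16.5 CPM with DMSO, 12.7 to 14.2 with tretinoin, 16.0 to 21.0 with vemurafenib and 17.6 to 21.2 with the combination, and rose by 0.52 over tretinoin (SE 0.12, adjusted p = 0.00176). Its rises against DMSO, 0.30 with vemurafenib and 0.34 with the combination, were both lost without DMSO replicate 3, the first also without vemurafenib replicate 2 or 3 and the second without combination replicate 1. HOXD8 rose with the combination by 0.42 over DMSO (SE 0.13, adjusted p = 0.0123) and by 0.50 over tretinoin, from 7.33 to 10.4 CPM with DMSO and 7.67 to 8.65 with tretinoin to 10.1 to 12.5; vemurafenib libraries held 9.19 to 10.7, and the rise over DMSO was lost without DMSO replicate 3 or combination replicate 2. HOXD3 was at 0.053 to 0.203 CPM with DMSO, 0.147 to 0.349 with tretinoin, 0.300 to 0.623 with vemurafenib and 0.232 to 1.16 with the combination. No test is read from it, since no DMSO library reached the filter level. HOXD10, at 0.930 to 1.69 CPM, was called in no comparison. The HOXD sum was 43.8 ± 1.8 CPM with DMSO, 37.9 ± 0.7 with tretinoin, 39.6 ± 2.2 with vemurafenib and 42.2 ± 3.9 with the combination.

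Paralogs moved in different directions in some cases. Among the genes numbered 13, vemurafenib raised HOXB13 by 1.24 and HOXC13 by 0.35, lowered HOXD13 by 1.08, and gave 0.29 (SE 0.24, adjusted p = 0.314) for HOXA13. Among those numbered 5, the combination raised HOXA5 by 2.16, against -0.23 (SE 0.23, adjusted p = 0.418) for HOXB5 and 0.75 (SE 0.41, adjusted p = 0.133) for HOXC5. Among those numbered 4, it raised HOXA4 by 1.66 and lowered HOXB4 by 0.73, with -0.19 (SE 0.10, adjusted p = 0.109) for HOXC4. HOXB8 and HOXC8 both fell with vemurafenib, while HOXD8 was at 0.19 (SE 0.13, adjusted p = 0.25).

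The tretinoin effect was set side by side without and with vemurafenib. The 10 genes higher with the combination than with vemurafenib were HOXA3, HOXA4, HOXA5, HOXB2, HOXB8, HOXB9, HOXC10, HOXC11, HOXC12 and HOXC13. Of these, HOXA5 and HOXC13 also rose with tretinoin alone, and HOXB2 fell. The test of the difference was passed by HOXA5, HOXC13 and HOXB2 only, so that for the other 7 a larger tretinoin effect with vemurafenib was not shown.

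**Figure D4:**
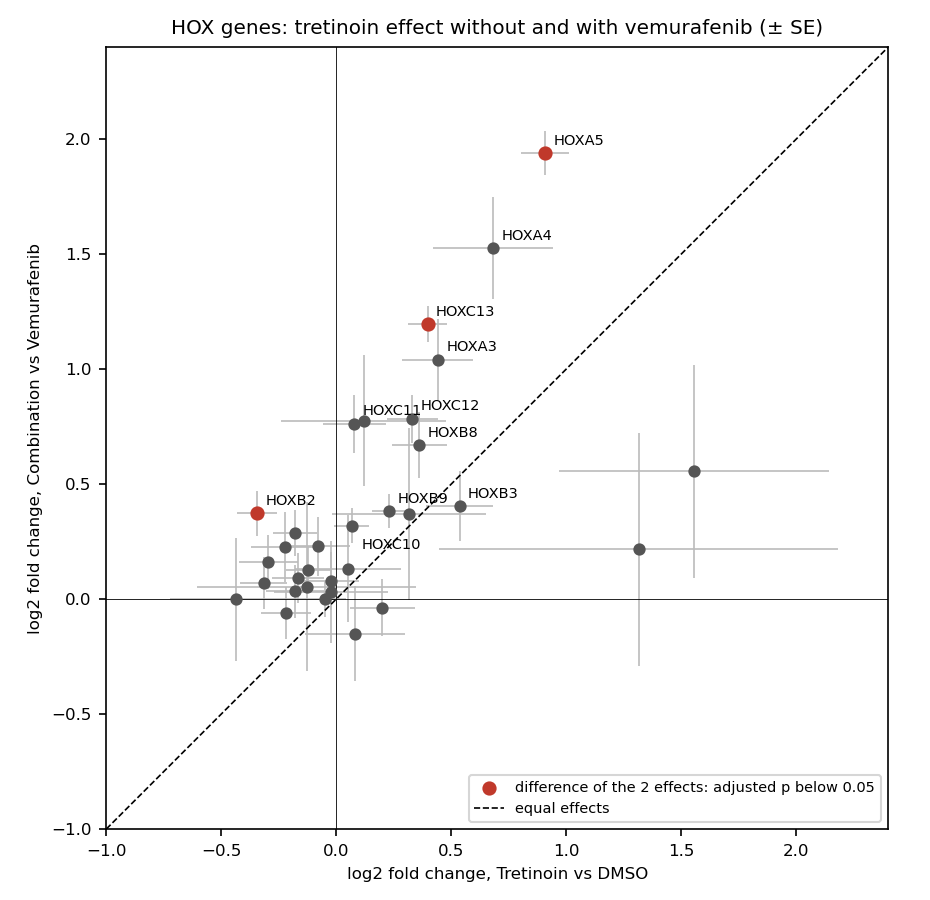
Tretinoin effect on each of the 32 tested HOX genes without vemurafenib (horizontal axis, log2 fold change of Tretinoin against DMSO) and with it (vertical axis, log2 fold change of Combination against Vemurafenib), ± SE; genes called in either comparison are named, the dashed line marks equal effects and red marks genes whose 2 effects differed. HOXA5 lies at 0.91 and 1.94, HOXC13 at 0.40 and 1.19, and HOXB2 at -0.34 and 0.37.

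Noncoding RNAs transcribed within the clusters, 12 of 24 of which passed the filter, rose wherever they were called against DMSO. Several of them were near or below the filter level with DMSO, where a fall could scarcely be called. HOXC13-AS, on the strand opposite HOXC13 with start sites 0.878 kb apart, was at 1.03, 0.811 and 1.16 CPM with DMSO and 1.98, 1.80 and 2.35 with tretinoin. It was at 3.79, 3.51 and 3.42 with vemurafenib and at 9.13, 7.67 and 6.79 with the combination, with no overlap between groups. HOXC13-AS rose with tretinoin by 1.02 (SE 0.24, adjusted p = 0.019), with vemurafenib by 1.82 (SE 0.22, adjusted p = 1.82e-06) and with the combination by 2.94 (SE 0.20, adjusted p = 1.23e-09), and over vemurafenib by 1.13 (SE 0.16, adjusted p = 0.000149). The tretinoin call was lost without DMSO replicate 2 or tretinoin replicate 3. HOXC13 and HOXC13-AS share 172 exon bases. Fragments over those bases touched both genes and were left out. Since strand was ignored, a read in an exon of only 1 gene was counted for it whichever strand it came from.

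HOXC-AS3 passed the filter through treated libraries only and is left out of the counts that follow. Of the other 11 tested noncoding RNAs vemurafenib raised 4 (36.4%, where 26.4% of all tested genes rose), HOXC13-AS, HOTAIR (log2 1.33), HOXD-AS2 (1.18) and HOXC-AS2. HOTAIR, HOXD-AS2, HOXC-AS2 and HOXA-AS3 each reached the filter level in 1 DMSO library only, so that a fall of any of them could scarcely be called. HOTAIR, a HOXC transcript known for its association with Polycomb complexes, was at 0.158 to 0.902 CPM with DMSO and 1.08 to 1.35 with vemurafenib, and its call was lost without either DMSO replicate 2 or 3 or vemurafenib replicate 1 or 2. The combination raised 5 (45.5%, where 27.1% of all tested genes rose), HOXC13-AS, HOTAIR (1.73), HOXA-AS3 (1.20), HOXC-AS1 (1.04) and HOXC-AS2 (0.92). Apart from HOXC13-AS in both comparisons, and HOTAIR and HOXC-AS1 with the combination, these calls were each lost in 3 or 4 of the 6 fits that left out a DMSO or treated library. The median over the 11, members low with DMSO included, was 0.54 with vemurafenib and 0.69 with the combination. HAGLR, in the HOXD cluster, was lower with the combination than with tretinoin by 0.42 (SE 0.12, adjusted p = 0.00678). The listed miRNA genes of the clusters held at most 2 counts.

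HOX proteins bind DNA together with TALE homeodomain cofactors of the PBX, MEIS and PKNOX families. Vemurafenib raised PKNOX2 by 0.76 (SE 0.17, adjusted p = 0.00116), PBX2 by 0.68 (SE 0.09, adjusted p = 6.37e-06), MEIS1 by 0.61 (SE 0.15, adjusted p = 0.00315) and MEIS2 by 0.55 (SE 0.07, adjusted p = 1.95e-06). Tretinoin raised MEIS2 by 0.30 (SE 0.07, adjusted p = 0.0121), a call lost without DMSO replicate 2. Against vemurafenib the combination lowered MEIS3 by 0.63 (SE 0.14, adjusted p = 0.0121) and PBX2 by 0.48 (SE 0.09, adjusted p = 0.00241), the former not without vemurafenib replicate 1 or combination replicate 3. Against DMSO it raised MEIS1 by 0.55 and MEIS2 by 0.49.

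Of 20 Polycomb, Trithorax and related regulators of HOX chromatin, vemurafenib raised EZH1 (0.59) and KMT2A (0.25) and lowered 6 (30% of 20, where 26.3% of all tested genes fell), most of all PHC2, a Polycomb repressive complex 1 subunit, by 1.76 (SE 0.06, adjusted p = 3.92e-13), EED, a core subunit of Polycomb repressive complex 2, by 0.82 and WDR5, a shared subunit of Trithorax methyltransferase complexes, by 0.59. Tretinoin raised KMT2A by 0.37 (SE 0.10, adjusted p = 0.0303) and PHC2 by 0.31 (SE 0.06, adjusted p = 0.00641). The KMT2A calls were lost in 4 of 6 fits without a library for tretinoin, tretinoin replicate 1 among them, and in 5 of 6 for vemurafenib. The combination changed 9 against DMSO, 1 higher and 8 lower, where 27.1% and 26.5% of all tested genes rose and fell. Of 21 related homeobox genes outside the clusters, 11 were tested. DLX5 passed the filter through vemurafenib and combination libraries only. Of the other 10, vemurafenib raised DLX4 (0.64) and lowered 6, where 26.3% of all tested genes fell, led by GBX2 (by 1.42), MSX1 (by 1.39) and DLX1 (by 1.09). Tretinoin lowered DLX2 by 0.41 (SE 0.09, adjusted p = 0.0134), MSX1 by 0.28 and MEOX2 by 0.27, and the combination lowered MEOX2 by 0.50 and DLX2 by 0.48 against vemurafenib. Of these, the tretinoin calls of MSX1 and MEOX2 were lost in 5 and 4 of 6 fits without a library, that of DLX2 without DMSO replicate 2 or tretinoin replicate 2, and the vemurafenib call of DLX4 in 4 of 6.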

How the data were processed

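RNA-seq was run on 12 A375 libraries. According to the study's methods and the labels, the authors prepared poly(A)-selected directional paired-end libraries, aligned reads with STAR 2.5.3a to GRCh38.p10 with GENCODE 27, and counted fragments per gene with summarizeOverlaps in Union mode without regard to strand; the deposited values are raw counts per gene. Symbols, positions and exon lengths came from GENCODE 29, which matched 58084 of 58347 identifiers. HOXC5 has 2 identifiers, of which 1 held 0 counts in every library.

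Counts were tested with edgeR 4.0.16 (R 4.3.3): filterByExpr by group, TMM scaling, quasi-likelihood F test in 1 fit over all 12 libraries, Benjamini-Hochberg adjustment over 16740 genes and a threshold of 0.05. SE is the log2 fold change divided by the root of F. CPM are TMM-scaled. DESeq2 1.42.0 was an alternative, beside other scalings and filters, a replicate block and leaving out each library. The procedure was checked on simulated counts. The members and lists were chosen with earlier results of these data known. Every member is accounted for; from other lists, genes called with tretinoin, with the combination against vemurafenib or in the interaction are named, and the 3 largest changes each way for vemurafenib. The sequences are RefSeq promoter windows without exons of coding genes. A result on the cofactor list is not reported here.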

Additional observations from a re-analysis of the deposited data

Results flagged for a closer look

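For 3 HOX genes the effect of tretinoin differed between cells with and without vemurafenib by a test of the difference itself. HOXA5 responded by 1.03 more on the log2 scale with vemurafenib than without (SE 0.14, adjusted p = 0.00238), and HOXC13 by 0.80 more (SE 0.12, adjusted p = 0.00333). HOXB2 responded by 0.72 more (SE 0.13, adjusted p = 0.0122), from -0.34 without vemurafenib to 0.37 with it. The first 2 calls held in all 18 alternative fits, with HOXA5 between 0.93 and 1.11 and HOXC13 between 0.69 and 0.86. The HOXB2 call was lost in 2 of 18, with library size scaling and without vemurafenib replicate 2. The call of its fall with tretinoin alone was lost in 6 of 13 alternative fits. That of its rise over vemurafenib was lost in 7 of 13.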

How the results depend on the processing

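With scaling by library size only, the log2 changes of all genes shifted by 0.19 for vemurafenib, 0.16 for the combination against DMSO and -0.10 for the interaction. The vemurafenib split of HOX genes then became 8 higher and 8 lower instead of 5 and 11, HOXB9 turned to 0.009, and HOXB3 and HOXC4 were no longer called. The tretinoin count against DMSO, 4 as reported, was 8 at an adjusted p of 0.1 and 1 when only the compared groups were fitted. Leaving out single libraries gave 1 to 4 genes for tretinoin, with 1 without DMSO replicate 2 and 3 without tretinoin replicate 1, 13 to 15 for vemurafenib, 18 to 23 for the combination, 7 to 9 for the combination against vemurafenib, 19 to 22 against tretinoin and 2 to 3 for the interaction. DESeq2 gave 4, 14, 21, 10, 18 and 3. Same-numbered replicates did not deviate together (mean correlation -0.031 over 18 pairs, -0.143 to 0.087). No pairing by number was seen, but 3 replicates per group cannot exclude one. A replicate block gave 3, 14, 20, 10, 19 and 3. The causes were not tested. Depth limits the low members, HOXA9 and HOXD3 among them.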

Other observations

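The genes outside the clusters whose levels over the 12 libraries were most like those of HOXA5, by Pearson correlation of log2 CPM, were ZBTB18 (0.982), GRIN2B (0.979), TF (0.976), LINC00857 (0.971) and BTG1 (0.962). The libraries share their treatments, and these values describe the likeness only. GRIN2B, an NMDA receptor subunit gene, changed against DMSO by 1.70 with tretinoin, 0.78 with vemurafenib and 3.73 with the combination on the log2 scale, and ZBTB18, a zinc finger repressor gene, by 0.47, 0.15 and 0.97.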
